A study of Mus musculus with 12 samples.

Results

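The microRNA genes outside the Dlk1-Dio3 cluster were followed in quadriceps muscle of 7-day-old C57Bl/6 mice. They were the genes whose probe sets carry a single symbol beginning with Mir and a number, leaving out the genes between Dlk1 and Dio3 on chromosome 12 and host transcripts whose symbols end in hg. By this rule 247 genes were found among the 19938 genes that had a probe set of their own. Of these, 7 belong to the muscle families Mir1, Mir133, Mir206, Mir208 and Mir499, and 240 form the rest. Another 59 probe sets name a microRNA gene together with other genes and were not used, Mir133b among them. Total RNA of 6 mice labelled wildtype (WT) and 6 labelled as lacking cofilin-2 (KO) was hybridized to 12 arrays of the type Affymetrix Mouse Gene 1.0 ST, 1 mouse to an array by the study's account. Per the study's methods the WT mice were littermates of the knockout mice.

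MicroRNAs are short RNAs that guide Argonaute proteins to messenger RNAs, which are then translated less or degraded. They are cut from long primary transcripts, first by Drosha and Dgcr8 in the nucleus and then by Dicer1 in the cytoplasm, and bases 2 to 8 of the mature RNA, the seed, choose most targets. In skeletal muscle, miR-1, miR-133 and miR-206 are made in large amounts during differentiation, and miR-208 and miR-499 are carried in introns of myosin heavy chain genes. The probes of such arrays lie in the gene of the hairpin or its primary transcript. The level of a mature microRNA was therefore not measured here, and a level of a microRNA gene is that of the RNA its probes capture.

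The mature sequences of the genes on which the results turn are shown to give the families to which they belong, with the seed in capitals. All were taken from RefSeq (GRCm38.p6), whose tables gave at least 1 mature sequence for 221 of the 247 genes. The first 3 come from the cluster that differed most and are on the + strand of chromosome 8, where miR-23a-3p lies at chr8:84208563-84208583, miR-27a-3p at chr8:84208727-84208747 and miR-24-3p at chr8:84208875-84208896.
miR-23a-3p: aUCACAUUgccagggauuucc
miR-27a-3p: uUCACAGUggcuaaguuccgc
miR-24-3p: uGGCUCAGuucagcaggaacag
The next 2 are members of the miR-30 family on the + strand of chromosome 1 and have the seed GUAAACA in common, at chr1:23272274-23272295 for miR-30a-5p and chr1:23291714-23291736 for miR-30c-5p.
miR-30a-5p: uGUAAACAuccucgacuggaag
miR-30c-5p: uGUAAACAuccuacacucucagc
The muscle families are shown by miR-206-3p (chr1:20679055-20679076, + strand), miR-208a-3p (chr14:54949072-54949093, - strand) and miR-499-5p (chr2:155622893-155622913, + strand).
miR-206-3p: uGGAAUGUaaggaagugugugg
miR-208a-3p: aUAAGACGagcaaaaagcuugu
miR-499-5p: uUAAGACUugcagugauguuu
The last 4 have the seed AGCAGCA in common and stem from 2 clusters, on chromosome 14 (- strand, chr14:61632075-61632096 and chr14:61631936-61631957) and chromosome 11 (+ strand, chr11:70235062-70235082 and chr11:70234730-70234751).
miR-15a-5p: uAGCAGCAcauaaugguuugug
miR-16-5p: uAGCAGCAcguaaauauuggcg
miR-195a-5p: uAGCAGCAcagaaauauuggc
miR-497a-5p: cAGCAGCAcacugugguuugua

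The level of Cfl2, the gene knocked out, went against the labels. It was 12.31 to 12.43 on the arrays labelled KO and 4.92 to 7.71 on those labelled WT, on a log2 scale, with a difference of 6.32 ± 0.36 (SE) and an adjusted p of 1.98e-07 in limma. Groups are therefore called labelled KO and labelled WT, no array was reassigned, and every direction is labelled KO minus labelled WT. The study gives Cfl2 as reduced in the knockout, which is the opposite of its direction here. The muscle label held, with 6 markers of muscle fibres averaging 12.3 to 12.8 on every array. Within these, Myh4 was higher (1.70 ± 0.27, adjusted p = 0.000397). Tnni2 and Tnnt3 were lower (-0.13 ± 0.04 and -0.12 ± 0.04, adjusted p = 0.0117 and 0.0180). The array labelled WT4 stood apart, with a mean of 4 neutrophil markers of 9.51 against 5.75 to 6.36 on the other arrays. Xist and the Y-linked gene Eif2s3y differed within both groups, from 4.78 to 11.67 and from 4.78 to 9.42. They were both well above their lowest levels on the arrays labelled WT2 (8.28 and 9.35), KO2 (9.76 and 8.85) and KO6 (7.74 and 9.42). Both also lay clearly above these levels on WT1 (6.85 and 9.12), KO1 (11.32 and 6.86), KO3 (11.08 and 5.97), KO4 (6.86 and 9.37) and KO5 (6.16 and 9.27). This covers every array labelled KO. Whether RNA of more than 1 mouse was combined on some arrays was not tested, and n counts arrays.

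Over all genes, 31.9% passed the test between the groups (limma, Benjamini-Hochberg adjusted p under 0.05), 20.1% with a rise and 11.8% with a fall on the arrays labelled KO. Among the microRNA genes, 72 of 247 passed and each was lower, which is 29.1%. None was higher by this test, and 1 was higher at an unadjusted p under 0.05, Mir100 at 0.15 ± 0.06 (SE, adjusted p = 0.0565), against 102 lower. The difference was below 0 for 220 of the 247, or 89.1%, against 54.4% of all genes. The median difference was -0.11 for the microRNA genes and -0.01 (log2) for all genes, so most of the microRNA genes differed little in size. Of the 72, 38 were lower by less than 1.2-fold, 22 by 1.2-fold to less than 1.5-fold and 12 by 1.5-fold or more, of which 4 reached 2-fold. At 1.5-fold or more, 4.86% of the microRNA genes were lower, against 1.28% of all genes. Every array labelled KO lay below every array labelled WT for 33 of the microRNA genes, or 13.4%, against 4.69% of all genes.

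These were dim probe sets as a rule. The median level of the microRNA genes was 4.88 and that of all genes 7.11, and 219 of the 247 lay at or below the latter. Among those 219, 59 were lower (26.9%), against 9.37% of all genes at such levels, with median differences of -0.10 and -0.05. Among the 28 above it, 13 were lower (46.4%), against 14.3% of all genes, with medians of -0.22 and 0.07. The SD over all rows was 2.27 to 2.29 on the arrays labelled KO and 2.21 to 2.26 on those labelled WT. The part of this spread in the differences was not tested. Across the microRNA genes the difference fell with level, with a Pearson r of -0.53 over 247 genes, all measured on the same 12 arrays. No detection calls were at hand, and at the dim end, where the lowest gene averaged 3.51, a signal could not be told apart from background.

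**Figure D1:**
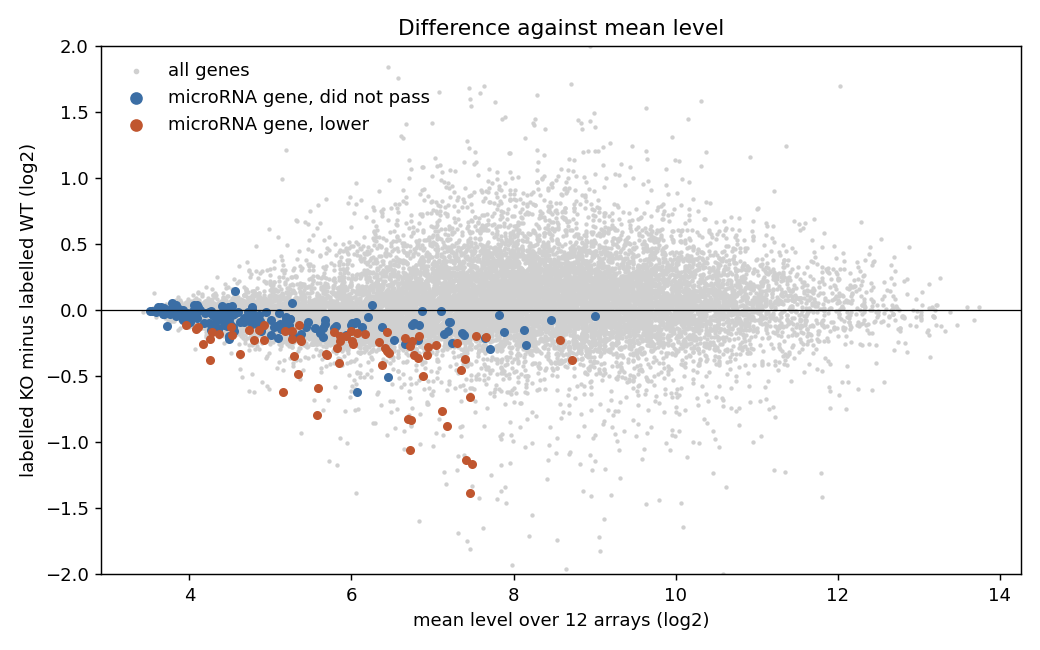
Difference between the groups (y axis, labelled KO minus labelled WT, log2) against mean level over 12 arrays (x axis, log2), with all genes in grey, microRNA genes that were lower in orange and those that did not pass in blue. The 72 orange points all lie below 0 and no microRNA gene lies among the large rises; 8 genes with a difference beyond 2 in either direction are outside the drawn range.

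Mir23a, Mir27a and Mir24-2 are processed from 1 primary transcript and have been studied in muscle atrophy and myoblast differentiation. They held the largest difference of all 247, and all 3 were lower with no overlap between the groups. Mir27a was at 8.09, 8.16 and 8.24 (lowest, median and highest) on the arrays labelled WT and at 6.57, 6.75 and 7.00 on those labelled KO. Its difference was -1.39 ± 0.07 (SE), or 2.61-fold lower (adjusted p = 1.46e-07). Mir23a was at 7.99, 8.06 and 8.19 on the arrays labelled WT and at 6.83, 6.91 and 6.97 on those labelled KO. The gap between the groups was wider than the range within either of them, and Mir23a was 2.24-fold lower (adjusted p = 1.15e-08). Mir24-2 was at 7.39, 7.49 and 7.63 against 6.48, 6.77 and 6.91, which is 1.70-fold lower (adjusted p = 1.43e-05). The other copy of this cluster shares its probe sets with Aopep and was not used.

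Of the 7 muscle genes 3 were lower and none was higher, beside 28.8% of the 240 others and 11.8% of all genes lower. Their median difference was -0.62, against -0.10 for the 240 others and -0.01 for all genes. They were also brighter, with a median level of 6.69 against 4.87 for the 240 others. The 28 microRNA genes above the median level of all genes had a median difference of -0.22, and the part of level was not tested. Mir1a-1 and Mir133a-2 are neighbours in the genome, as are Mir1a-2 and Mir133a-1, and both pairs give the same mature miR-1a and miR-133a. Mir133a-2 was at 7.64, 7.88 and 8.60 on the arrays labelled WT and at 6.27, 6.85 and 7.42 on those labelled KO. It was 2.20-fold lower with no overlap (difference -1.14 ± 0.19, adjusted p = 0.000515). Mir1a-1 was at 6.34, 7.09 and 7.81 against 5.98, 6.22 and 6.77. Its groups overlapped, since the array labelled WT6 lay below 2 of the arrays labelled KO, and the difference was -0.82 ± 0.20 (adjusted p = 0.00635).

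In the other pair, Mir1a-2 was at 6.91, 7.08 and 7.42 on the arrays labelled WT and at 5.38, 6.42 and 6.77 on those labelled KO, 1.78-fold lower with no overlap (adjusted p = 0.00374). The array labelled KO3, at 5.38, was far below the next at 6.35. Mir133a-1 did not pass, at 7.39, 7.88 and 8.21 against 7.12, 7.56 and 8.05, with a difference of -0.29 (95% interval -0.63 to 0.04, adjusted p = 0.170). So in the pair with the larger gap 1 member passed and its neighbour did not, and a test of the difference between neighbours was not run.

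Mir206, which is made in skeletal and not in cardiac muscle, was at 5.88, 6.14 and 7.28 on the arrays labelled WT and at 4.94, 5.95 and 6.05 on those labelled KO. The difference of -0.62 (95% interval -1.13 to -0.11) did not pass, with an adjusted p of 0.0622. The spread was wide in both groups, with WT4 at 7.28 and WT2 at 6.77 above the rest and KO3 at 4.94 below it. Without the array labelled WT4, which had the high neutrophil markers, the difference was -0.44. Mir208a and Mir499 were dim, at 4.55 to 4.76 and 4.38 to 4.67 on all 12 arrays, and their intervals reached from -0.10 to 0.07 and from -0.16 to 0.07. Their host genes, Myh6 and Myh7b, averaged 7.69 and 7.27 and did not pass, with differences of -0.20 ± 0.12 (adjusted p = 0.229) and -0.18 ± 0.07 (adjusted p = 0.0729).

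**Figure D2:**
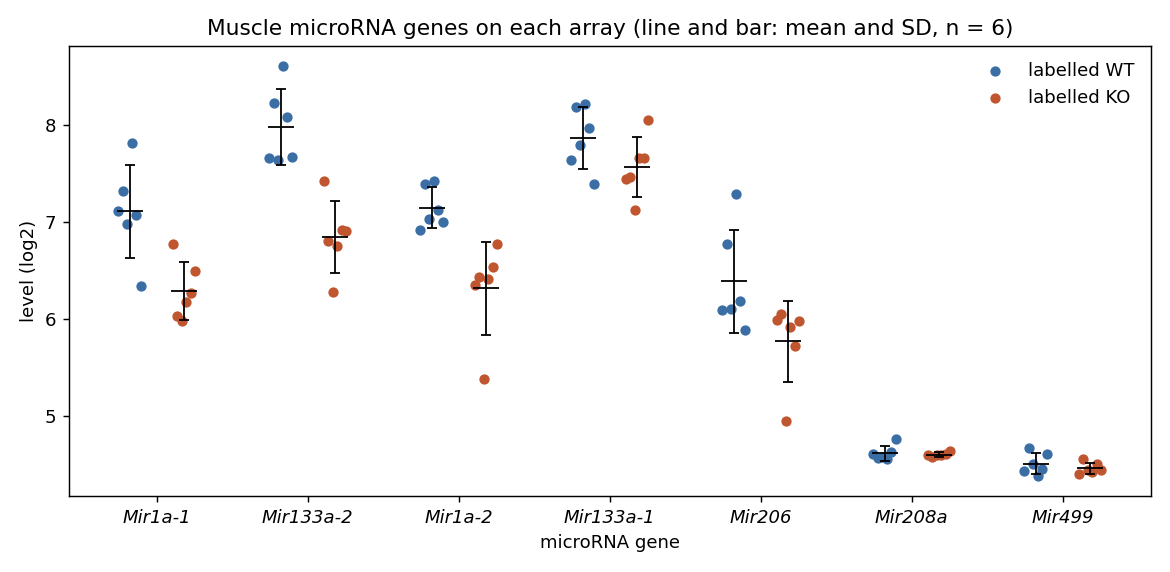
Levels (y axis, log2) of the 7 muscle microRNA genes on each array, with arrays labelled WT in blue and labelled KO in orange, and the mean and SD (n = 6) as line and bar. The groups are apart for Mir133a-2 and Mir1a-2, overlap for Mir1a-1, Mir133a-1 and Mir206, and coincide near 4.5 for Mir208a and Mir499.

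Mir143 and Mir145a lie together and are known from smooth muscle cells, where they favour the contractile state. Both were lower with no overlap. Mir143 was at 7.03, 7.20 and 7.62 on the arrays labelled WT and at 5.88, 6.20 and 6.39 on those labelled KO, or 2.08-fold lower (adjusted p = 1.08e-05). Mir145a was at 7.32, 7.62 and 7.85 against 6.22, 6.81 and 7.18, or 1.83-fold lower (adjusted p = 0.000406). Of 4 markers of smooth muscle 1 was lower and none higher, and their mean level was 8.92 to 9.30 on the arrays labelled KO and 9.24 to 9.55 on those labelled WT. The marker that was lower was Cnn1 (-0.95 ± 0.20), and the other 3, Myh11, Acta2 and Tagln, averaged 9.56 to 9.84 against 9.68 to 9.95. All 4 endothelial markers were higher, at a mean of 10.50 to 10.64 against 9.86 to 10.35, while Mir126a, carried by the endothelial gene Egfl7, did not pass at 0.04 ± 0.04 (SE). In bulk tissue fewer cells of a type and less RNA per cell cannot be told apart, and the part of the smooth muscle markers in these differences was not tested.

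The Mir30 family is broadly made and has been described in heart and skeletal muscle. Of 6 genes of the family, 4 were lower with no overlap. Mir30b was at 5.68, 5.88 and 6.64 on the arrays labelled WT and at 5.03, 5.17 and 5.36 on those labelled KO (1.73-fold lower, adjusted p = 0.000444), and its neighbour Mir30d was at 7.66, 7.74 and 8.11 against 6.97, 7.11 and 7.37 (1.58-fold lower, adjusted p = 8.88e-05). For both, the array labelled WT4 was the highest. Mir30a was at 5.64, 5.84 and 6.13 against 5.23, 5.29 and 5.36, and Mir30c-2 at 5.10, 5.50 and 5.86 against 4.74, 4.84 and 4.94. They were 1.51-fold and 1.54-fold lower (adjusted p = 5.25e-05 and 0.000785). The remaining pair, Mir30c-1 and Mir30e, lies within Nfyc and did not pass, with differences of -0.12 ± 0.06 (adjusted p = 0.160) and -0.20 ± 0.11 (adjusted p = 0.191). Nfyc, a subunit of a transcription factor, was higher by 0.18 ± 0.06 (adjusted p = 0.0321).

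**Figure D3:**
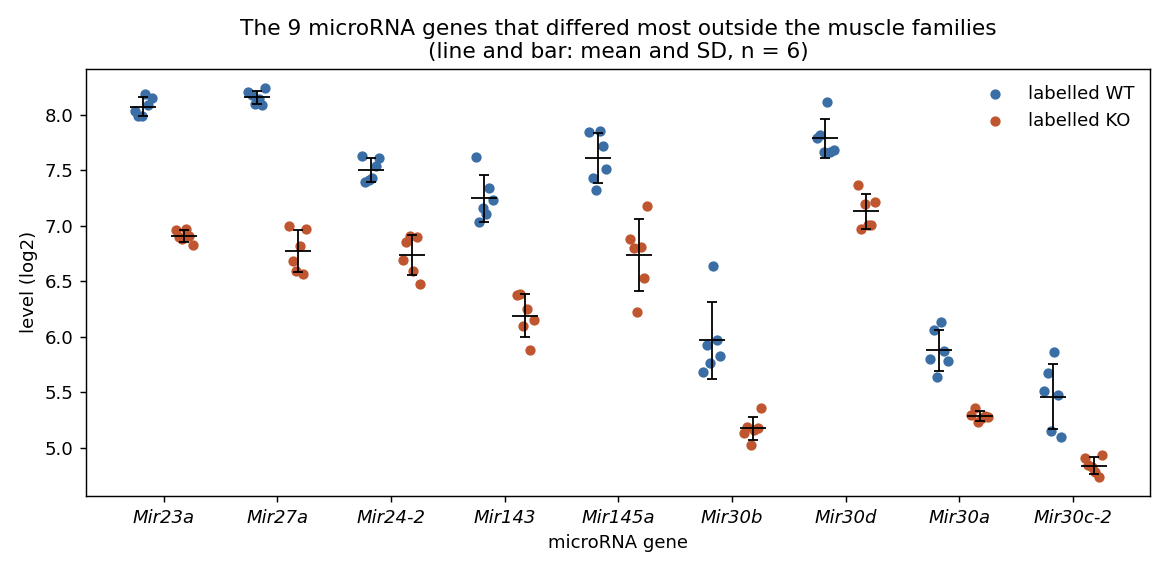
Levels (y axis, log2) of the 9 microRNA genes that differed most outside the muscle families on each array, arrays labelled WT in blue and labelled KO in orange, with the mean and SD (n = 6) as line and bar. For all 9 genes every orange point lies below every blue point, from the widest gap at Mir27a to the narrowest at Mir145a and Mir30c-2.

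Outside these families the next in size were Mir505, Mir680-1 and Mir483. Mir505 was at 6.76, 7.21 and 7.52 on the arrays labelled WT and at 6.46, 6.69 and 6.74 on those labelled KO, 1.41-fold lower (adjusted p = 0.00411). Mir680-1 was 1.40-fold lower with overlap (adjusted p = 0.00872). Mir483 lies within the imprinted growth factor gene Igf2 and was at 7.36, 7.53 and 7.92 against 6.89, 7.14 and 7.33, 1.37-fold lower (adjusted p = 0.00363). Of 4 microRNA genes listed for imprinted loci outside Dlk1-Dio3, 3 were lower, and the list need not hold every such gene. Among the 3 were the neighbours Mir296 and Mir298 of the Gnas locus, at differences of -0.36 ± 0.09 (SE) and -0.34 ± 0.06. The fourth, Mir335 within Mest, did not pass at -0.08 ± 0.05 (adjusted p = 0.231), although Mest itself was higher by 0.36 ± 0.07 (adjusted p = 0.00134).

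By function, the microRNAs studied in myoblasts outside the muscle families held 19 genes, of which 8 were lower with a median of -0.15. Besides the Mir23a cluster these were Mir26a-1, Mir128-1, Mir128-2, Mir31 and Mir155, at differences from -0.34 to -0.15. Mir221 and Mir222, which restrain an inhibitor of cell division, did not pass and differed by -0.02 ± 0.05 and -0.04 ± 0.05. Of 13 genes in the Mir17, Mir106b and Mir106a clusters, which favour cell division, 3 were lower, Mir19b-1 (-0.25 ± 0.05), Mir17 (-0.17 ± 0.04) and Mir20a (-0.14 ± 0.04). All 3 averaged below 4.3, and 3 markers of dividing cells averaged 9.59 to 9.81 on the arrays labelled KO and 8.31 to 9.64 on those labelled WT. The Mir15 and Mir16 family, which represses cyclins, had 2 of 6 lower, Mir16-1 (-0.34 ± 0.06) and Mir195a (-0.18 ± 0.04). Their neighbours with the same seed, Mir15a (-0.17 ± 0.13) and Mir497 (-0.05 ± 0.05), did not pass, with adjusted p of 0.360 and 0.414.

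Of 9 microRNA genes induced by p53, 3 were lower, Mir143, Mir145a and Mir194-2 (-0.28 ± 0.07), while Mir34a differed by -0.15 ± 0.08 and did not pass (adjusted p = 0.185). Among 7 genes of matrix and fibrosis, Mir30c-2 was lower, and Mir29a and Mir29b-1, which repress collagens, were near the bottom of the scale at 3.80 and 3.59. Of 6 genes of blood cells, 2 were lower, Mir150 (-0.24 ± 0.06) and Mir155 (-0.15 ± 0.04), both made in lymphocytes. Beside these, all 4 macrophage markers were higher, at a mean of 9.01 to 9.23 on the arrays labelled KO against 8.36 to 8.81, and the 4 neutrophil markers did not pass. Markers of other cells also moved with the groups. Of adipocytes 3 of 5 were higher, at a mean of 8.30 to 10.12 against 8.23 to 9.21. Of 2 markers of brown fat, Ucp1 was higher (2.75 ± 0.60) and Cidea did not pass (0.07 ± 0.28, adjusted p = 0.870). For Ucp1 the array labelled KO5, at 5.69, lay within the arrays labelled WT (5.24 to 5.94). Of fibroblasts 4 of 4 moved, 3 higher and 1 lower, and of satellite cells 1 of 3, Pax7 (0.20 ± 0.06). Of 6 markers of muscle fibres, 1 was higher and 2 were lower. The part of all these markers in the differences of microRNA genes was not tested. The red cell gene Mir451a was at 4.95 or below on all arrays, and its difference of -0.07 ± 0.05 did not pass. Of 11 genes of epithelia, liver and pancreas, Mir200a was lower (-0.23 ± 0.07), and its neighbour Mir200b was not. None of 16 genes of neurons and none of 5 of embryonic stem cells passed, with medians of -0.09 and -0.01, nor did Mir33 of sterol regulation (-0.02 ± 0.03), whose host Srebf2 was higher by 0.50 ± 0.07 (adjusted p = 0.000113). These counts are read against 11.8% lower among all genes and 29.1% among the 247 microRNA genes, from which the lists were drawn. No list was tested as a whole.

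**Figure D4:**
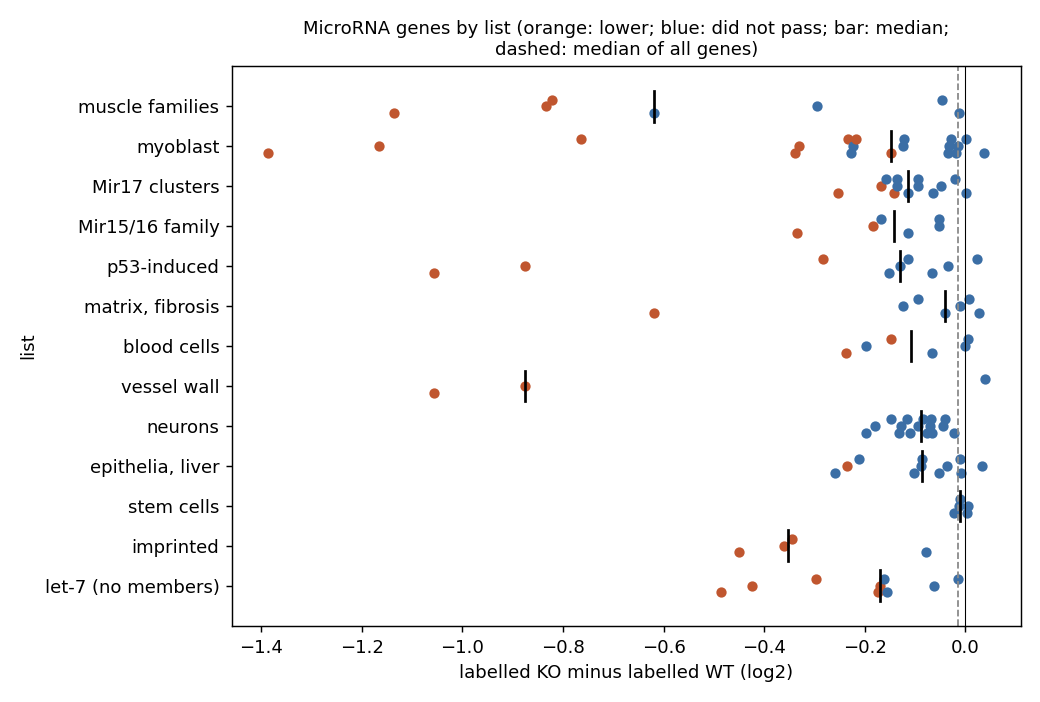
Differences (x axis, labelled KO minus labelled WT, log2) of the microRNA genes of each list (y axis), lower genes in orange, genes that did not pass in blue, the list's median as a bar and the median of all genes as a dashed line. The muscle, vessel wall and imprinted medians lie at -0.62, -0.88 and -0.35, and the neuron and stem cell lists hold no orange point; let-7 genes fall outside the symbol rule and are drawn for comparison.

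Members within 10000 bases of each other formed 40 clusters, by distance alone, which held 98 of the 247. In 7 clusters every member was lower. These were the Mir23a cluster, Mir30b with Mir30d, Mir143 with Mir145a, Mir1a-1 with Mir133a-2, Mir296 with Mir298, Mir181c with Mir181d and Mir191 with Mir425. In 24 clusters no member passed, and the other 9 were mixed. Of the 149 members outside clusters 45 were lower, beside 72 of all 247 (29.1%) and 11.8% of all genes. Seeds were grouped without the members on chromosome 18, among them Mir1a-2, Mir133a-1, Mir143 and Mir145a. Over the other members with a mature sequence in the RefSeq table, 61 seeds were found in more than 1 member. Every member was lower for 5 of these seeds, none for 30 and some for 26. The 5 belong to Mir128-1 with Mir128-2 (2 seeds), Mir326 with Mir330, Mir26a-1 with Mir26b and Mir204 with Mir211. The miR-15 seed AGCAGCA had 2 of 6 genes lower and the miR-181 seed ACAUUCA 2 of 6. The miR-30 seed GUAAACA was counted without Mir30b and Mir30d and had 2 of 5 lower.

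Hosts were counted where a protein-coding gene with a probe set of its own holds the microRNA gene on the same strand. This was so for 79 of the 210 members whose strand the RefSeq table gave, giving 80 pairs. The host gene was higher in 9 and lower in 3 of the 27 pairs whose microRNA gene was lower, and did not pass in 15. These are 33.3% and 11.1%, against 33% and 14.3% of all genes above the median level, where 21 of the 27 hosts lie. The counts of these 27 pairs are thus near those of genes in general. In the other 53 pairs, with 34 hosts above the median level, the host was higher in 23 (43.4%), lower in none and did not pass in 30. These shares lie further from the 33% and 14.3%, which was not tested. The median host difference was 0.04 in the 27 pairs and 0.10 in the 53. Across the 80 pairs the Pearson r between microRNA and host differences was 0.18, as a description of pairs that share arrays and in part hosts. The 3 pairs lower together were Mir483 with Igf2 (-0.12 ± 0.03), Mir128-1 with R3hdm1 (-0.16 ± 0.04) and Mir32 with Tmem245 (-0.31 ± 0.06). In the 9 pairs with a higher host, Mir425 and Mir191 were lower (-0.23 ± 0.06 and -0.16 ± 0.05) within Dalrd3 at 0.18 ± 0.04 (adjusted p = 0.00160). Mir139 was lower (-0.20 ± 0.06) within the phosphodiesterase gene Pde2a at 0.32 ± 0.07 (adjusted p = 0.00385). The remaining hosts of these 9 pairs were Arpp21, Clcn5 (with both Mir501 and Mir362), Evl, Fgf13 and Pank2. Whether the probes of a microRNA gene also capture unspliced host RNA was not tested.

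**Figure D5:**
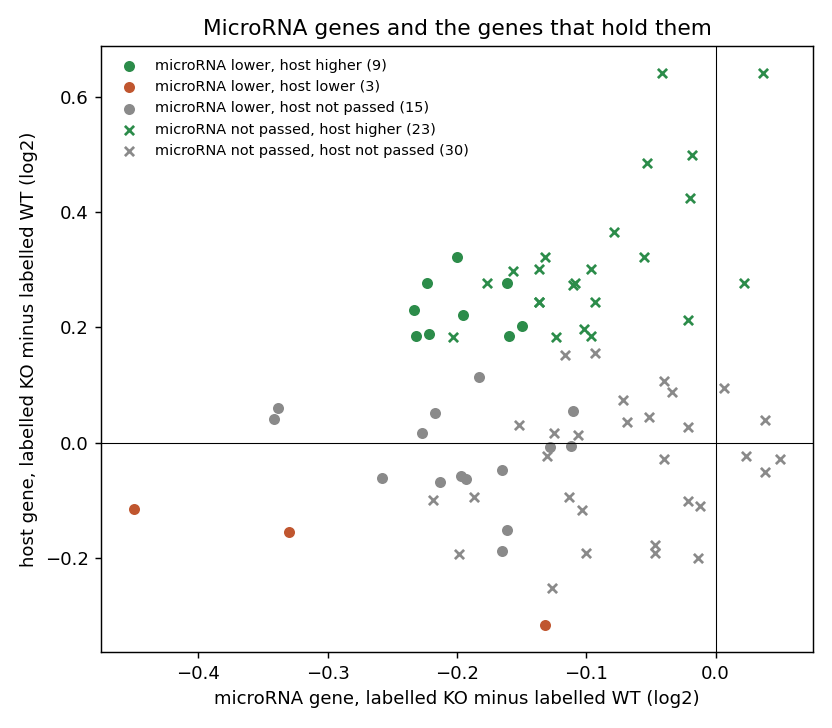
Difference of the host gene (y axis, log2, labelled KO minus labelled WT) against that of the microRNA gene it holds (x axis, log2) for 80 pairs, with circles for microRNA genes that were lower and crosses for those that did not pass, coloured by the host's call. The 27 circles lie left of 0 with hosts on both sides of it, 9 higher, 3 lower and 15 that did not pass.

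Host transcripts named for their microRNAs were left out of the 247 and are given beside them. Mir17hg was lower by a difference of -0.24 ± 0.07 (adjusted p = 0.0143), with 3 of the 5 members it holds. Mir100hg, at a level of 8.25 to 8.96, did not pass at 0.22 ± 0.11 (adjusted p = 0.140), and Mir100 within it also had a positive difference. By position it also holds Mirlet7a-2, which was lower (-0.17 ± 0.06, adjusted p = 0.0426), and Mir125b-1, which did not pass (-0.015 ± 0.048, adjusted p = 0.834). Of the 4 probe sets of Mir99ahg none passed, with differences from -0.06 to 0.07, while Mir99a was at -0.51 ± 0.19 and missed the threshold (adjusted p = 0.0597).

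Of 42 genes that make or use microRNAs, 9 were lower and 6 higher. These are 21.4% and 14.3%, or 35.7% called in all, against 11.8%, 20.1% and 31.9% of all genes, so the share called was near that of all genes. The lower ones included Ago4 (-0.38 ± 0.09) and Ago2 (-0.29 ± 0.08), which carry microRNAs, their partner Tnrc6a (-0.30 ± 0.06), the uridylyl transferase Tut4 (-0.37 ± 0.04), and the processing genes Dicer1 (-0.19 ± 0.06, adjusted p = 0.0413) and Dgcr8 (-0.12 ± 0.04). The higher ones included Drosha (0.20 ± 0.04), Ran (0.35 ± 0.06), which drives export from the nucleus, and the decapping gene Dcp2 (0.38 ± 0.05). Drosha was at 8.87 to 9.03 on the arrays labelled KO and 8.67 to 8.80 on those labelled WT, and Tut4 at 9.34 to 9.54 against 9.79 to 9.88, so neither overlapped. Of 9 let-7 genes, whose symbols the rule does not take, 5 were lower and none higher, led by Mirlet7c-1 (-0.49 ± 0.11) and Mirlet7d (-0.42 ± 0.09). Beside these, 11.8% of all genes and 29.1% of the 247 microRNA genes were lower.

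The 40 microRNA genes of the Dlk1-Dio3 cluster differed far more, with 39 lower and a median of -1.06 at a median level of 8.54. Of 51 small nucleolar RNA genes, also short and partly intronic, 3 were lower (5.88%) and none was higher, with a median of -0.06. The difference between these sets and the 247 was not tested.

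Lower members had more GC as a rule. Over the 210 genes with a hairpin sequence in the RefSeq table, the median GC content was 53.7% for the 57 that were lower and 46.2% for the 153 that did not pass. Among the 105 hairpins above the median GC content 42 were lower (40.0%), and among the 105 at or below it 15 were (14.3%). Hairpins with more GC also had higher levels, with a Pearson r of 0.70 between GC content and level and of -0.41 between GC content and difference, so composition and level went together. The highest array labelled WT was WT6 for 118 of all 247 members and for 32 of the 72 lower ones, and it was WT4 for 43 and 19. The mean over the 247 was 5.38 on WT6, 5.29 to 5.34 on the other arrays labelled WT and no more than 5.19 on any array labelled KO, so the groups did not overlap without WT6 either. Without WT4 and WT6 together, 54 members were called, of which 51 were among the 72. The part of base composition in the differences was not tested.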

How the data were processed

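Total RNA of quadriceps muscle from 12 mice was hybridized to 1 array each. Per the study's methods, the Affymetrix operating software read the images and Affymetrix Power Tools made normalized gene level values. The sources used here give neither its settings nor the genome build. From there, the deposited log2 values of 35556 rows were used as the authors left them, with the log2 scale read from the values. Probe sets were named through the platform annotation, and 21789 carried 1 symbol. A linear model with group as its only term was fitted to each with limma (lmFit, eBayes; version 3.58.1, R 4.3.3), and p-values were adjusted by Benjamini-Hochberg over all 21789 at 0.05. Where a gene had several probe sets the brightest on average was used, which left 2 of the 3 probe sets of Mir713 unused. Folds are 2 to the power of the difference. All 247 symbols matched RefSeq (GRCm38.p6) by gene identifier, which gave neighbours, hosts and sequences. Groups came from the sample titles.

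The members and lists were chosen with earlier results of these data known. Named were all muscle genes, the 12 largest falls among the others (no gene rose), up to 4 passing genes per list, their hosts and their cluster neighbours; others named with their values, among them Mir100, Mir99a, Mir181c, Mir181d and Mir139, were chosen after their values were seen. The separate microRNA array of the study was not analysed here. The fit was tested on simulated data. Tried as alternatives were median centring, quantile normalization, a replicate block, dim probe sets left out, all rows tested, other variance settings, array weights, the methods' t-test, the mean of a gene's probe sets and each array left out; 1 more, without WT4 and WT6, was chosen after seeing the data.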

Additional observations from a re-analysis of the deposited data

Results flagged for a closer look

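Among 74 groups of 6 arrays examined for the 37 microRNA genes of the naming rule, 7 held an array whose gap to the nearest other exceeded the 95% critical value of Dixon's test (0.625 of the group's range), and chance gives about 1 in 20 such groups. The array labelled KO3 was low for Mir206, at 4.94 with the next at 5.72 (0.703 of the range), and for Mir1a-2, at 5.38 with the next at 6.35 (0.698). KO3 was also high for the dim Mir200b, at 4.61 with the next at 4.41 (0.714). The array labelled WT4 was high for the neighbours Mir30b, at 6.64 with the next at 5.97 (0.698), and Mir30d, at 8.11 with the next at 7.82 (0.644). The array labelled WT6 was high for Mir208a, at 4.76 with the next at 4.62 (0.667), and for Mir200a, at 6.27 with the next at 6.00 (0.675).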

How the results depend on the processing

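Of the 72 microRNA genes lower in the comparison, 12 of the 12 tested were also called when only probe sets above the median level were tested, 65 with all rows tested, 51 after quantile normalization and 60 with the methods' t-test after Benjamini-Hochberg adjustment. The count of called members was 128, all lower, after centring each array on its median (51.8% of members, as lower calls over all probe sets went from 12.4% to 26.9%), and 14, all lower, of 26 tested above the median level, of which 1 was a muscle gene. One member, Mir100, was higher after quantile normalization, with trend and robust variances, with array weights, with the methods' t-test at an unadjusted p, and in 2 of the 12 fits without 1 array. After quantile normalization the difference was below 0 for 199 of the 247 members, with a median of -0.07 against -0.01 over all probe sets. Leaving out each array in turn gave 57 to 75 called members, 57 to 75 lower, 0 to 1 higher and 3 to 4 muscle genes. Titles of both groups carry the numbers 1 to 6, but the labels tie no number to a litter. Deviations of same-numbered arrays correlated at -0.22 to 0.17, and 2 of 6 arrays labelled KO correlated best with their own number, so the numbers were not taken as pairs. With the replicate block 52 members were called, 50 of them among the 72. Of the 37 named genes, Mir206 passed in 4 of 21 alternatives, and Mir20a missed the threshold in 1. For Mir206 the p-values were 0.0325 to 0.120, adjusted in all alternatives but the methods' t-test at an unadjusted p. Dim genes that did not pass changed sign: Mir208a, at -0.01, was 0.029 after quantile normalization, 0.0092 without WT4 and WT6 and -0.025 to 0.017 without single arrays (highest without WT6), and Mir200b, at 0.03, was -0.027 after median centring, -0.011 with array weights and -0.0060 to 0.065 without single arrays (lowest without KO3). Dim signal near background and the 6 arrays in each group limit precision. On simulated data with 21789 probe sets, 23 of 50 planted differences of 0.25 (log2) were recovered and 47 of 50 of 0.5. There 21589 probe sets held no planted difference, while 6952 of the 21789 passed in the data. The Benjamini-Hochberg cut-off on p was thus stricter in the simulation, and its rates are not those of the test on the data.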
